A study of Mus musculus with 12 samples.

Results

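Which genes clozapine moves the same way in wild-type mice and in mice labelled as conditional Hdac2 knockouts was asked by setting all libraries from drug-treated animals against all libraries from vehicle-treated animals. All 12 libraries of the series enter this comparison, 6 with clozapine and 6 with vehicle. They were made from bilateral frontal cortex of male C57BL/6 mice, in 4 groups of 3. Wild-type mice were given vehicle or clozapine at 10 mg/kg, described in the series as chronic, and mice carrying HDAC2(loxP,loxP) with CamKIIa-Cre(+,-) were given the same. The CamKIIa promoter drives Cre in forebrain excitatory neurons, so glia, vessels and most interneurons of the labelled knockout keep the gene. The labels do not give the age of the mice or the length of treatment, and do not say whether the wild-type mice carried loxP alleles or Cre.

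Clozapine is an antipsychotic drug that blocks serotonin 5-HT2A and dopamine D2 receptors and binds histamine, muscarinic and adrenergic receptors. In cortex these receptors act on excitatory neurons and interneurons, and long treatment is known to be followed by changes in gene expression. HDAC2 takes acetyl groups off histones and lowers transcription of many neuronal genes.

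Each gene was given a log2 change for clozapine minus vehicle in each genotype, and the mean of these is the averaged log2 change. Expression levels are in CPM, counts scaled to the size of the library, which compare libraries and not genes, because long genes collect more reads. All changes are on the log2 scale. A gene is called here where edgeR's quasi-likelihood test of the average gave a Benjamini-Hochberg adjusted p under 0.05. An average can also pass on the strength of 1 genotype, so called genes are given with their change in each genotype. Where a difference between the genotypes is given, it is the labelled knockout's change minus the wild type's. No label ties a library to an animal of its own, and the spread behind each p-value, that between libraries of 1 group, may be technical in part.

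Total counts lay between 23408372 and 28069638 per library, and 17286 of 47069 genes had enough counts to be tested. Excitatory neuron markers summed to 8105.9 to 9598.1 CPM over the 12 libraries, and the 4 measured choroid plexus markers to 3.09 to 9.71 CPM in all libraries but wild-type vehicle 3, where they reached 60.1 CPM. Hdac2 itself (chromosome 10, 36974544 to 37001889) was at 75.7, 63.4 and 70.00 CPM with vehicle and 75.5, 72.3 and 73.5 CPM with clozapine in wild type, and at 75.4, 76.6 and 73.3 CPM with vehicle and 73.9, 70.5 and 71.2 CPM with clozapine in the labelled knockout. These 4 groups overlapped, and the count over the whole gene does not test a deletion of single exons, so the knockout is named as labelled. Hdac2 had an averaged log2 change with clozapine of 0.01 (SE 0.04, edgeR adjusted p = 0.964).

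Averaged over the genotypes, 26 genes were called, 0.150% of those tested. Of these 17 were higher with clozapine (0.0983% of tested genes) and 9 were lower (0.0521%), and 1936 genes (11.2%) had an unadjusted p under 0.05. The log2 changes of 25 called genes had the same sign in both genotypes, 17 higher and 8 lower. In 17 of the 26, each genotype taken alone also had an unadjusted p under 0.05, 13 of them higher and 4 lower, which 120 of all tested genes (0.694%) did. Another 6 had this in wild type only and 3 in the labelled knockout only. Since the average is made of both changes, these counts describe the called genes and do not test them again. The 6 clozapine libraries and the 6 vehicle libraries did not overlap for 10 of the called genes, and for 65 of all tested genes (0.376%). Within each genotype the libraries of the treatments did not overlap, in the same direction, for 17 called genes and for 206 of all tested genes (1.19%). Another 1.96% of tested genes did not overlap in opposite directions. Calling by the average favours genes without overlap, so these counts too are descriptions.

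**Figure D1:**
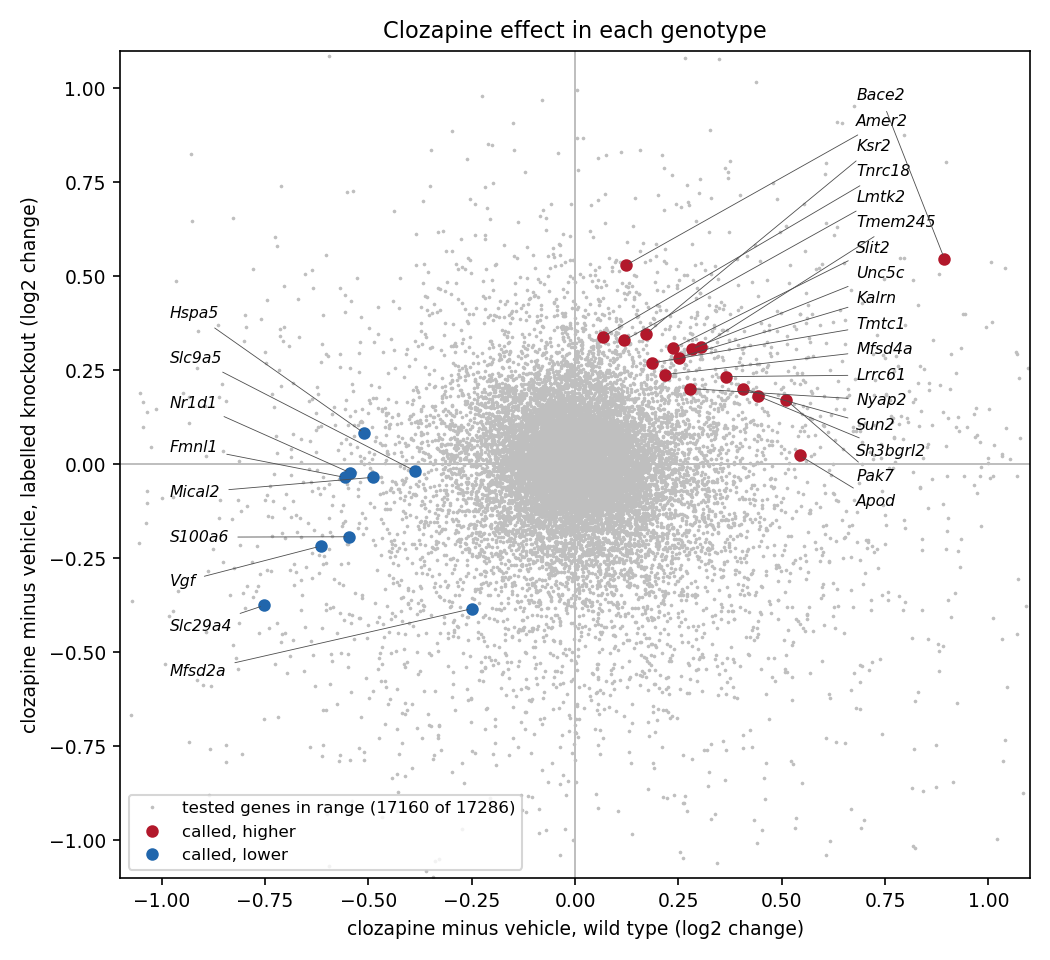
Log2 change with clozapine in wild type (horizontal axis) against that in the labelled knockout (vertical axis). Grey points are tested genes within the plotted range, red and blue points the 17 higher and 9 lower called genes. The grey points show no slope, and 48.2% of all tested genes had the same sign in both genotypes. Of the 26 called genes 25 lie in the quadrants of equal sign, some of them close to the horizontal axis. Calling genes by the mean of both axes itself favours these quadrants.

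Agreement between the genotypes was not a feature of the whole transcriptome. The effects in wild type and in the labelled knockout share no library, and over the 17286 tested genes, which are not independent replicates, their Spearman correlation was -0.0281. The sign was the same for 8323 genes, 48.2%. Of the genes with an unadjusted p under 0.05 in each genotype, 120 had the same sign and 205 had opposite signs. The 141 genes called for clozapine in wild type (0.816% of tested genes) were followed into the labelled knockout. The wild-type change came from wild-type libraries, but the spread behind that call was estimated from all 12 libraries. In the labelled knockout 59 had the same sign and 82 the opposite sign. There 31 had an unadjusted p under 0.05 (22.0%, against 12.2% of all tested genes), 10 with the same sign and 21 with the opposite one. Both tests use the same spread for a gene, so the 22.0% is not an independent follow-up. The average called 15 of the 141 genes called in wild type, 2 of the 4 genes called in the labelled knockout (0.0231% of tested genes), and 9 that neither genotype called alone.

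Kalrn, Pak7, Slit2 and Unc5c were among the called genes with log2 changes above 0 in both genotypes. Kalrn (chromosome 16, 33969073 to 34573532), which encodes a protein that shapes dendritic spines through the actin skeleton, was at 613, 703 and 726 CPM with vehicle and 824, 784 and 824 CPM with clozapine in wild type, and at 694, 741 and 666 CPM with vehicle and 865, 871 and 821 CPM with clozapine in the labelled knockout. All 6 clozapine libraries lay above all 6 vehicle libraries. The averaged log2 change was 0.27 (SE 0.04, 95% interval 0.18 to 0.36, edgeR adjusted p = 0.0303), and the changes of 0.25 in wild type and 0.28 in the labelled knockout differed by 0.03 (95% interval -0.15 to 0.22). Pak7 (chromosome 2, 136081104 to 136387967), which encodes a brain p21-activated kinase that acts on actin and microtubules, was at 61.9, 60.5 and 64.2 CPM with vehicle and 91.8, 83.2 and 90.9 CPM with clozapine in wild type, and at 65.8, 68.1 and 70.1 CPM with vehicle and 69.5, 80.1 and 80.3 CPM with clozapine in the labelled knockout. Its wild-type groups stood well apart, while knockout clozapine 3 lay among the vehicle libraries of its genotype. Pak7 had an averaged log2 change of 0.34 (SE 0.04, 95% interval 0.25 to 0.43, edgeR adjusted p = 0.00953), from 0.51 in wild type and 0.17 in the labelled knockout. The difference between its changes was -0.34 (95% interval -0.52 to -0.16, edgeR adjusted p = 0.0888).

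Slit2 (chromosome 5, 47983138 to 48307733) encodes a secreted ligand that repels growing axons. It was at 30.8, 31.4 and 34.7 CPM with vehicle and 39.97, 35.7 and 38.6 CPM with clozapine in wild type, and at 33.01, 35.96 and 33.5 CPM with vehicle and 40.2, 42.2 and 44.6 CPM with clozapine in the labelled knockout. Clozapine libraries lay above vehicle libraries within each genotype, and the averaged log2 change was 0.27 (SE 0.05, 95% interval 0.17 to 0.37, edgeR adjusted p = 0.0364), from 0.24 in wild type and 0.31 in the labelled knockout. Unc5c (chromosome 3, 141465216 to 141834924), the gene of a netrin receptor in the same field of axon guidance, was at 21.9, 24.7 and 21.97 CPM with vehicle and 30.1, 28.5 and 24.8 CPM with clozapine in wild type, and at 20.8, 20.9 and 22.9 CPM with vehicle and 26.7, 27.6 and 25.7 CPM with clozapine in the labelled knockout. Here the 6 clozapine libraries lay just above the 6 vehicle libraries, the closest values being 24.8 and 24.7 CPM. The averaged log2 change of Unc5c was 0.29 (SE 0.05, 95% interval 0.18 to 0.41, edgeR adjusted p = 0.0466), and its changes of 0.28 in wild type and 0.31 in the labelled knockout differed by 0.02 (95% interval -0.21 to 0.26).

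Nyap2, Ksr2 and Lmtk2 were also called as higher. Nyap2 (chromosome 1, 81076950 to 81341764), a neuronal adaptor that links tyrosine kinases to PI3K, was at 37.1, 36.4 and 39.2 CPM with vehicle and 45.4, 46.98 and 44.3 CPM with clozapine in wild type, and at 38.9, 40.1 and 40.3 CPM with vehicle and 43.2, 46.5 and 47.5 CPM with clozapine in the labelled knockout. No vehicle library reached the lowest clozapine library. Its averaged log2 change was 0.24 (SE 0.04, 95% interval 0.16 to 0.32, edgeR adjusted p = 0.0303), from 0.28 in wild type and 0.20 in the labelled knockout. Ksr2 (chromosome 5, 117414000 to 117775003), a scaffold of the Raf, MEK and ERK kinases, rose by 0.26 (SE 0.05, edgeR adjusted p = 0.0466), from changes of 0.17 in wild type and 0.35 in the labelled knockout. Lmtk2, a membrane kinase of endosomal traffic, rose by 0.22 (SE 0.04, edgeR adjusted p = 0.0369). For Lmtk2 the change was 0.12 in wild type, where the unadjusted p was 0.0504, and 0.33 in the labelled knockout. These changes differed by 0.21 (95% interval 0.04 to 0.38, edgeR adjusted p = 0.259).

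Sun2 and Bace2 were higher on average, with changes above 0 in each genotype. Sun2 (chromosome 15, 79724070 to 79742536), which anchors the cytoskeleton to the nucleus, was at 63.6, 64.7 and 61.99 CPM with vehicle and 92.1, 75.3 and 84.8 CPM with clozapine in wild type, and at 80.98, 76.9 and 87.99 CPM with vehicle and 91.3, 94.98 and 96.4 CPM with clozapine in the labelled knockout. Vehicle levels were higher in the labelled knockout than in wild type, so the treatment groups separate only within a genotype. Its averaged log2 change was 0.30 (SE 0.05, 95% interval 0.20 to 0.40, edgeR adjusted p = 0.0255), from 0.41 in wild type and 0.20 in the labelled knockout. The difference between its changes was -0.21 (95% interval -0.41 to -0.006, edgeR adjusted p = 0.354). Bace2 (chromosome 16, 97356742 to 97442936), a protease related to beta-secretase, had the largest averaged log2 change of the called genes at a low level. It was at 2.52, 1.73 and 2.30 CPM with vehicle and 5.51, 3.04 and 3.59 CPM with clozapine in wild type, and at 2.86, 3.07 and 2.77 CPM with vehicle and 4.33, 4.15 and 4.22 CPM with clozapine in the labelled knockout. Wild-type clozapine 2 had the highest value, and the averaged log2 change was 0.72 (SE 0.14, 95% interval 0.43 to 1.01, edgeR adjusted p = 0.0474), from 0.89 in wild type and 0.55 in the labelled knockout.

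Tmem245, a transmembrane protein whose role is little known, had averaged log2 change 0.31 (SE 0.05, edgeR adjusted p = 0.0364) and nearly equal changes of 0.30 in wild type and 0.31 in the labelled knockout. Mfsd4a, an orphan transporter of the major facilitator family, rose by 0.23 (SE 0.04, edgeR adjusted p = 0.0309), with 0.22 in wild type and 0.24 in the labelled knockout. For Tmtc1, an enzyme of the endoplasmic reticulum that adds mannose to cadherins, the average was 0.23 (SE 0.04, edgeR adjusted p = 0.0369), from 0.19 in wild type and 0.27 in the labelled knockout. Sh3bgrl2 rose by 0.31 (SE 0.05, edgeR adjusted p = 0.0303) and Lrrc61 by 0.30 (SE 0.06, edgeR adjusted p = 0.0444). Both had larger changes in wild type (0.44 and 0.37) than in the labelled knockout (0.18 and 0.23), and neither difference passed the test between genotypes (edgeR adjusted p = 0.277 and 0.664).

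**Figure D2:**
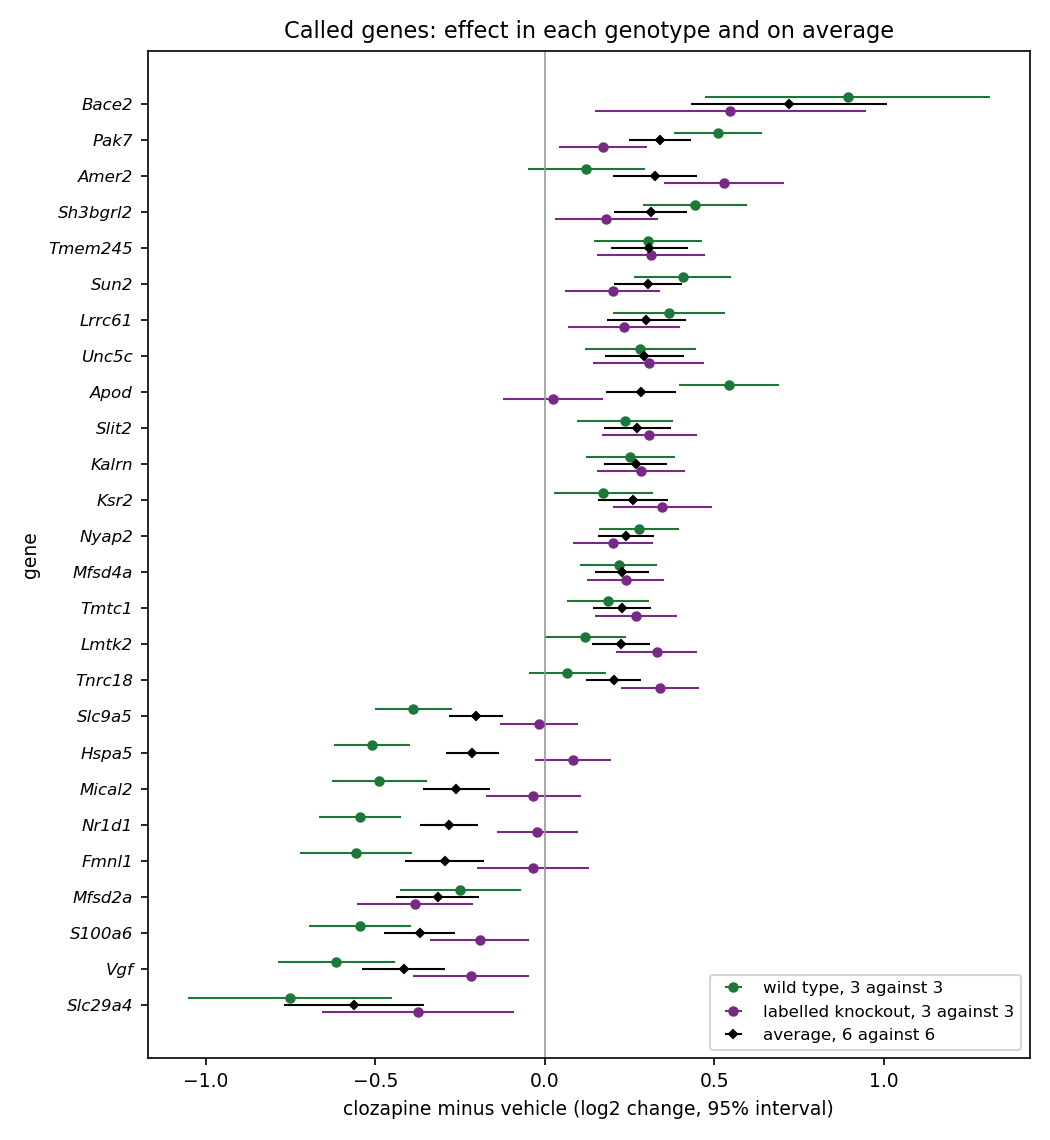
Log2 change of each called gene with its 95% interval: wild type in green, labelled knockout in purple (3 against 3 libraries each) and the average in black (6 against 6). Kalrn, Unc5c and Tmem245 have nearly equal changes in the genotypes, whereas for Hspa5, Nr1d1, Apod, Mical2, Fmnl1 and Slc9a5 the interval of the labelled knockout spans 0.

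A neuropeptide precursor, a monoamine transporter, a lipid transporter and a calcium-binding protein were lower in both genotypes. Vgf (chromosome 5, 137026392 to 137033351), which neurons make in response to activity and BDNF and cut into secreted peptides, was at 505, 522 and 544 CPM with vehicle and 344, 373 and 308 CPM with clozapine in wild type, and at 433, 467 and 433 CPM with vehicle and 415, 401 and 330.2 CPM with clozapine in the labelled knockout. The highest clozapine library, at 415 CPM, lay below the lowest vehicle library, at 433 CPM. Vgf had an averaged log2 change of -0.42 (SE 0.06, 95% interval -0.54 to -0.30, edgeR adjusted p = 0.0105), from -0.62 in wild type and -0.22 in the labelled knockout. The difference between the genotypes was 0.40 (95% interval 0.16 to 0.64, edgeR adjusted p = 0.138). Slc29a4 (chromosome 5, 142692512 to 142722490) encodes the plasma membrane monoamine transporter, which takes up serotonin and dopamine. It was at 6.05, 6.96 and 5.87 CPM with vehicle and 3.78, 3.17 and 4.26 CPM with clozapine in wild type, and at 7.38, 7.71 and 6.78 CPM with vehicle and 6.72, 5.12 and 5.01 CPM with clozapine in the labelled knockout. Within each genotype every clozapine library lay below the vehicle libraries, and the averaged log2 change was -0.56 (SE 0.10, 95% interval -0.77 to -0.36, edgeR adjusted p = 0.0364), from -0.75 in wild type and -0.38 in the labelled knockout.

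S100a6 (chromosome 3, 90612882 to 90624181), a small calcium-binding protein, was at 17.9, 17.03 and 16.98 CPM with vehicle and 12.2, 11.3 and 12.04 CPM with clozapine in wild type, and at 19.9, 18.8 and 19.8 CPM with vehicle and 18.00, 16.4 and 16.8 CPM with clozapine in the labelled knockout. The fall was clear of the vehicle libraries in each genotype. Its averaged log2 change was -0.37 (SE 0.05, 95% interval -0.47 to -0.27, edgeR adjusted p = 0.00953), from -0.55 in wild type and -0.19 in the labelled knockout. The difference between the genotypes for S100a6 was 0.35 (95% interval 0.14 to 0.56, edgeR adjusted p = 0.122), which did not pass. Mfsd2a (chromosome 4, 122946850 to 122961188), which carries omega-3 lysolipids across the endothelium of brain vessels, was at 18.8, 20.7 and 21.9 CPM with vehicle and 16.3, 17.1 and 18.2 CPM with clozapine in wild type, and at 25.5, 28.9 and 29.04 CPM with vehicle and 19.5, 23.3 and 21.1 CPM with clozapine in the labelled knockout. Its averaged log2 change was -0.32 (SE 0.06, edgeR adjusted p = 0.0444), with -0.25 in wild type and -0.38 in the labelled knockout. In bulk tissue fewer cells of a type and less RNA per cell cannot be told apart. For endothelial cells the 8 markers measured gave 0 calls, a median averaged log2 change of 0.02 and a summed level of 236.2 to 281.4 CPM in wild-type vehicle, 240.9 to 283.0 CPM in wild-type clozapine, 235.0 to 242.7 CPM in knockout vehicle and 226.1 to 242.6 CPM in knockout clozapine.

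**Figure D3:**
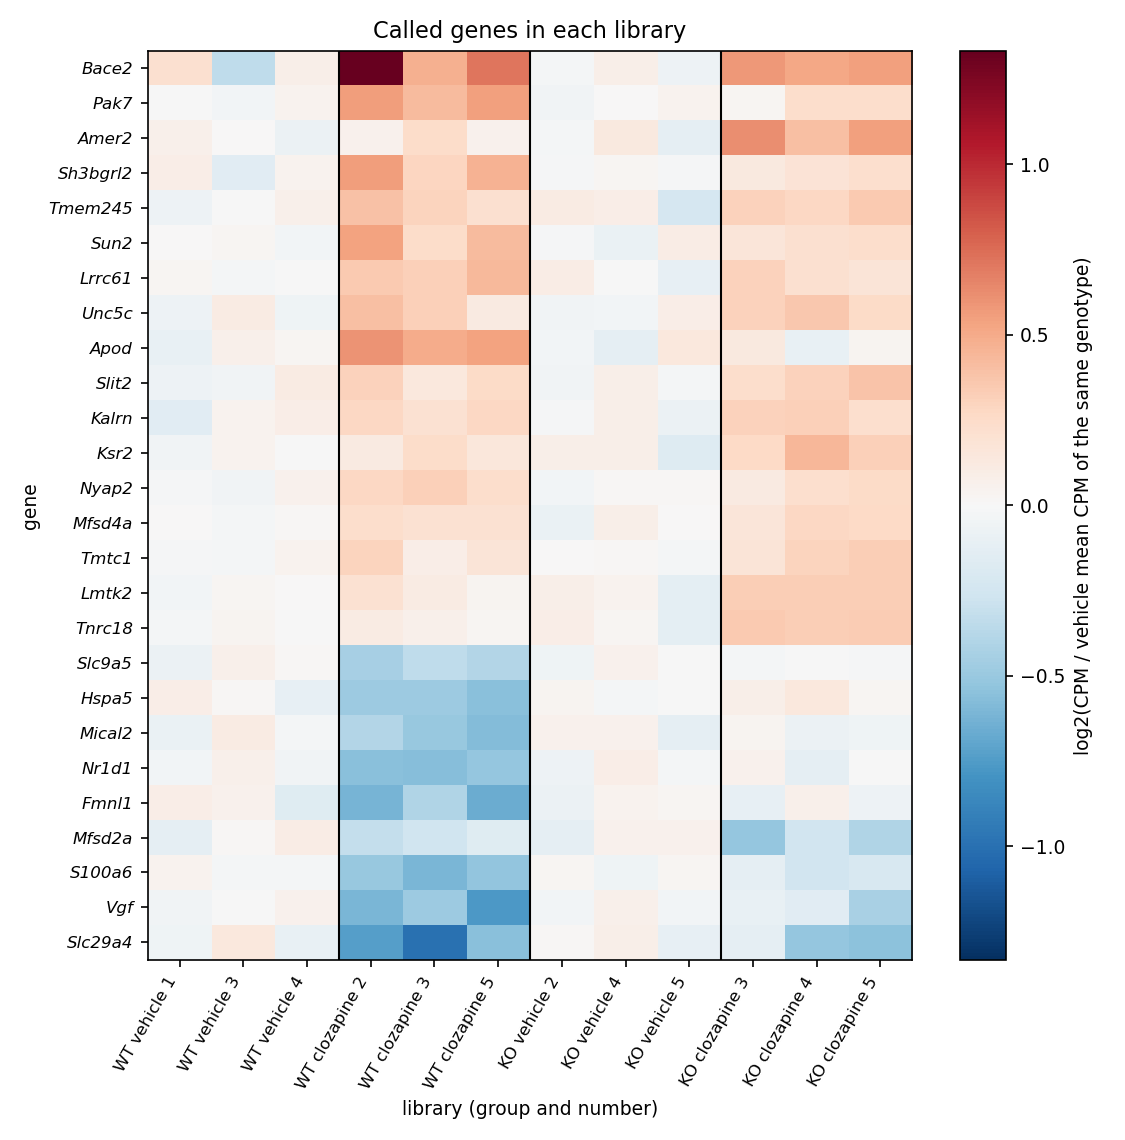
The 26 called genes (rows, ordered by averaged change) in the 12 libraries (columns). Colour gives log2 of the CPM over the mean CPM of the vehicle libraries of the same genotype, red above and blue below. Kalrn and Tmem245 are red in both clozapine blocks, and Hspa5 and Nr1d1 are clearly blue in the wild-type block only.

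A further 6 called genes rested on the wild type and differed between the genotypes. They are 23.1% of the called genes, where the difference between genotypes passed for 113 of all tested genes (0.654%). At an unadjusted p under 0.05 the difference was found in 14 of the 26 called genes (53.8%), against 13.6% of all tested genes. The average and the difference are tested with the same spread for a gene, so calling by 1 favours passing the other. These shares describe the called genes and do not test whether they hold more differences than other genes. Nr1d1 (chromosome 11, 98767932 to 98775333), a repressor within the circadian clock, had an averaged log2 change of -0.28 (SE 0.04, edgeR adjusted p = 0.0105), made of -0.54 in wild type and -0.02 in the labelled knockout. In the labelled knockout its vehicle libraries were at 135, 151 and 139 CPM and its clozapine libraries at 147, 130.3 and 141 CPM, which overlap. Apod, a lipid-binding apolipoprotein, had an average of 0.28 (SE 0.05, edgeR adjusted p = 0.0364) from 0.54 in wild type and 0.02 in the labelled knockout. Mical2, an enzyme that oxidises actin, had -0.26 (SE 0.05, edgeR adjusted p = 0.0369) from -0.49 in wild type and -0.03 in the labelled knockout. Fmnl1, a formin that extends actin filaments, had -0.30 (SE 0.05, edgeR adjusted p = 0.0466) from -0.56 in wild type and -0.03 in the labelled knockout. Slc9a5, a sodium-proton exchanger of neurons, had -0.20 (SE 0.04, edgeR adjusted p = 0.0466) from -0.39 in wild type and -0.02 in the labelled knockout. The differences between genotypes ran from -0.52 for Apod to 0.59 for Hspa5. The hour of dissection is not in the labels, and its part in the clock genes was not tested.

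Hspa5 (chromosome 2, 34771970 to 34777547), whose product folds proteins in the endoplasmic reticulum and holds its stress sensors in check, was the called gene with opposite signs. It was at 394, 374 and 345 CPM with vehicle and 265, 265 and 253 CPM with clozapine in wild type, and at 227, 218 and 220.2 CPM with vehicle and 233, 244 and 226 CPM with clozapine in the labelled knockout. The vehicle libraries of the labelled knockout were already below the clozapine libraries of the wild type. Its averaged log2 change of -0.21 (SE 0.04, edgeR adjusted p = 0.0369) therefore stands for -0.51 in wild type and 0.08 in the labelled knockout, a difference of 0.59 (95% interval 0.43 to 0.75, edgeR adjusted p = 0.00195).

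The chaperones of the endoplasmic reticulum are known to share a promoter element, the ER stress response element, written here as CCAAT and CCACG with 9 bases of any kind between. To show it in genes of this group, the 250 bases before the start of Hspa5, Calr and Pdia6 are printed 5′ to 3′ on the gene's strand, from RefSeq on GRCm38.p6, with the match on either strand in capitals. The start is that of RefSeq, and for Hspa5 it lies inside the GENCODE gene. The regions are chr2:34771840-34772089, plus strand, chr8:84846932-84847181, minus strand and chr12:17266339-17266588, plus strand.
Hspa5: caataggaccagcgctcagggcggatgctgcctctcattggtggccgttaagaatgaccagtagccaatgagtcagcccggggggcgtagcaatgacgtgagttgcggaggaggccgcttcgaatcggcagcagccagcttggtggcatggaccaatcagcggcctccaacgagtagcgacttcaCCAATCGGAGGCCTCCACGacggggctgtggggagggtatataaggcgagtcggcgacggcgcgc
Calr: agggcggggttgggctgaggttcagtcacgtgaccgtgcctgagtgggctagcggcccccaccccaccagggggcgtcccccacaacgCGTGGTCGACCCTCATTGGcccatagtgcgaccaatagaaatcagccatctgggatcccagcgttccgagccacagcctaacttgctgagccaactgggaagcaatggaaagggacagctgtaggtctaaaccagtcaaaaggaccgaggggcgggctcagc
Pdia6: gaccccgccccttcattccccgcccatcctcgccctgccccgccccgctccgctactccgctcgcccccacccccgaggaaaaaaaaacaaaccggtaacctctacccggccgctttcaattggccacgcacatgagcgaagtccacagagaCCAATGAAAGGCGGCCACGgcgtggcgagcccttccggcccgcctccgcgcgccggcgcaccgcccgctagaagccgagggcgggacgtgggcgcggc
Of 18 genes of the unfolded protein response list with an entry, 7 held this sequence, Calr, Canx, Creld2, Dnajc3, Hsp90b1, Hspa5 and Pdia6. It was in 0.113% of all 32851 windows of that length and in the 3 printed windows it overlapped no match of the other motifs. Of the 23 called genes with an entry it was in Hspa5 alone. The same 23 held the E-box CACGTG in 1 gene, Mical2 (6.02% of all windows), and the cAMP element TGACGTCA (1.55%), the D-box TTATGTAA (0.819%) and the sterol element TCACNCCAC (1.05%) in 0. Matches on both strands were counted, and a match describes letters and not binding.

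Another 2 called genes were called in the labelled knockout but not in the wild type. Amer2 (chromosome 14, 60373259 to 60388197), a regulator of Wnt signalling at the membrane, was at 22.8, 21.99 and 20.7 CPM with vehicle and 22.7, 25.8 and 22.7 CPM with clozapine in wild type, and at 15.1, 16.9 and 14.2 CPM with vehicle and 23.7, 20.4 and 22.6 CPM with clozapine in the labelled knockout. The vehicle libraries of the labelled knockout were the lowest of all 12 and stood clear of its clozapine libraries, while the wild-type groups overlapped. The averaged log2 change was 0.33 (SE 0.06, edgeR adjusted p = 0.0369), from 0.12 in wild type and 0.53 in the labelled knockout. Tnrc18, a reader of chromatin marks, rose by 0.20 (SE 0.04, edgeR adjusted p = 0.0472), from 0.07 in wild type and 0.34 in the labelled knockout. For these genes the differences of 0.41 (95% interval 0.16 to 0.65, edgeR adjusted p = 0.133) and 0.27 (95% interval 0.11 to 0.43, edgeR adjusted p = 0.126) did not pass.

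Which genes are called rested on few libraries. The 26 calls include 2, Pak7 and S100a6, that passed in all 12 fits that left out 1 library (highest edgeR adjusted p 0.041 for each). Nr1d1 and Vgf failed only without wild-type vehicle 3 (edgeR adjusted p = 0.063 for each). At the other end, Ksr2, Lrrc61 and Tnrc18 passed in 0 of the 12 fits, and Bace2, Mfsd2a, Amer2 and Slc9a5 in 1. The number of genes called, and how many of the 26 were among them, was 2 and 2 when wild-type vehicle 3 was left out, 10 and 9 for wild-type vehicle 4 and 16 and 10 for wild-type vehicle 1. Leaving out wild-type clozapine 2 gave 6 and 5, clozapine 3 gave 13 and 11 and clozapine 5 gave 13 and 10. In the labelled knockout the counts were 4 and 4 for vehicle 2, 15 and 12 for vehicle 4 and 24 and 16 for vehicle 5, then 15 and 11 for clozapine 3, 5 and 5 for clozapine 4 and 4 and 4 for clozapine 5. A model with 1 drug effect for both genotypes and no term for their difference called 0 genes, with 1681 at an unadjusted p under 0.05, while DESeq2 called 155, the 26 among them. Just inside the threshold lay Tnrc18 (edgeR adjusted p = 0.0472) and Bace2 (0.0474), and just outside lay Clec18a, Hecw2, Ucp2, Pth2r and Fam19a1 (edgeR adjusted p = 0.0563 each).

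**Figure D4:**
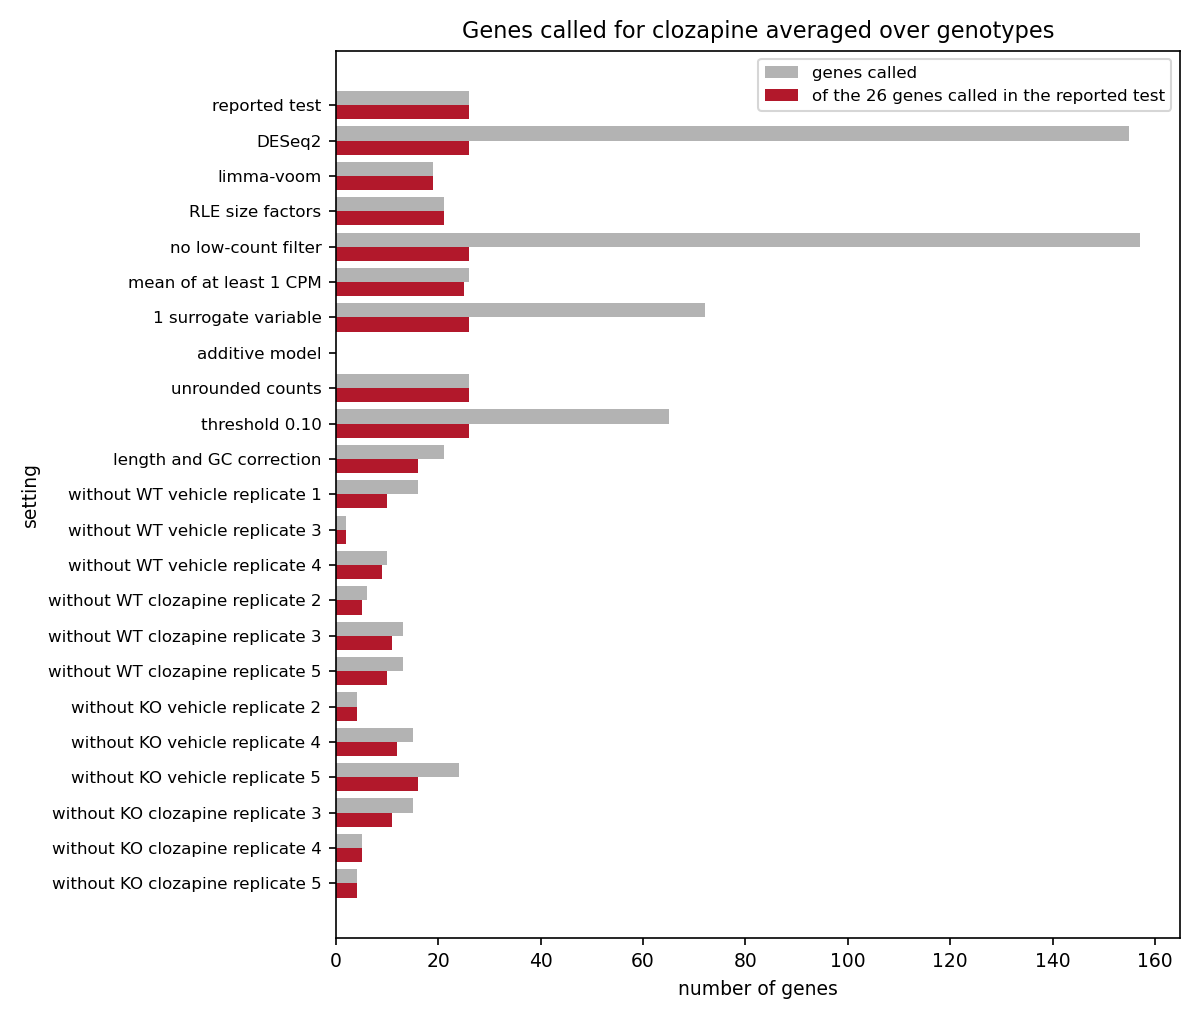
Number of genes called for the averaged effect (grey bars) and how many of the 26 reported genes are among them (red bars), for the reported test, for other methods and with each library left out. The count falls to 2 without wild-type vehicle 3, to 0 in the additive model, and rises to 155 with DESeq2 and 157 without a low-count filter. The fit with a replicate block is not drawn.

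Median transcript length was not the same in the higher and the lower genes. The longest annotated transcript had a median of 8114 bases over the 17 higher genes, 2834 over the 9 lower genes and 3141 over all tested genes, and 15 of the 17 against 4 of the 9 lay above the last value. Their genes spanned a median of 90475, 14339 and 20534 bases. The GC content of that transcript had a median of 46.3% in the higher genes, 55.7% in the lower genes and 49.8% in all. Over all genes with these values the averaged log2 change had a Spearman correlation of 0.123 with transcript length and -0.0311 with GC content. After a smooth correction of each library for both, 21 genes were called, 16 of them among the 26. Amer2, Mfsd2a, Tmtc1, Slit2, Tnrc18, Bace2, Fmnl1, Unc5c, Ksr2 and Kalrn were no longer called. The part of length in the calls beyond this was not tested. On the genome 5 called genes overlap a tested gene of the opposite strand, and without knowing whether counting used strand their reads cannot be told apart. These are Nr1d1 with Thra (averaged log2 change 0.06, SE 0.04, edgeR adjusted p = 0.673), Mfsd4a with Elk4 (0.10, SE 0.05, edgeR adjusted p = 0.455), Lrrc61 with Rarres2, Tmtc1 with Rps4l and Unc5c with Gm15688.

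Gene lists of pathways each held 0 or 1 called gene, and their medians are set against a median of 0.00 over all tested genes. Of 22 genes of the unfolded protein response 1 was called, Hspa5, which is lower, and 7 had an unadjusted p under 0.05 on the lower side and 0 on the higher (5.43% and 5.77% of all tested genes). The median averaged log2 change was -0.07, from -0.18 in wild type and 0.06 in the labelled knockout. The chaperone gene Calr had -0.13 (SE 0.03, edgeR adjusted p = 0.143) and the disulfide isomerase gene Pdia6 -0.14 (SE 0.04, edgeR adjusted p = 0.17), neither passing. Of 26 genes of cholesterol synthesis and its regulation 0 were called and 7 had an unadjusted p under 0.05, all higher, and the median of 0.07 came from 0.18 and -0.04.

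Circadian clock genes had no common direction: 1 of 19 was called, Nr1d1, and the median was 0.01. At an unadjusted p under 0.05, 4 were lower, with Nr1d1 and Dbp among them, and 2 higher (5.43% and 5.77% of all tested genes). Dbp, which the clock drives, had -0.22 (SE 0.05, edgeR adjusted p = 0.0941), from -0.62 in wild type and 0.19 in the labelled knockout. Of 24 activity-induced genes 1 was called, Vgf, and the median was -0.03. In that list 4 were lower and 0 higher at an unadjusted p under 0.05 (5.43% and 5.77% of all tested genes). Bdnf, the neurotrophin that induces Vgf, was at 46.7, 40.6 and 39.7 CPM with vehicle and 27.4, 33.9 and 24.6 CPM with clozapine in wild type, and at 27.9, 30.6 and 28.5 CPM with vehicle and 28.2, 24.9 and 24.6 CPM with clozapine in the labelled knockout. In wild type its clozapine libraries lay below the vehicle libraries, in the labelled knockout they overlapped, and the average of -0.36 (SE 0.07, edgeR adjusted p = 0.0584) did not pass.

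Of the 27 receptors that clozapine binds 0 were called, and the median was 0.01. At an unadjusted p under 0.05, 4 were higher and 1 lower (5.77% and 5.43% of all tested genes). Adra2a, the alpha-2A adrenergic receptor, came closest with 0.38 (SE 0.08, edgeR adjusted p = 0.0982) and 0.54 in wild type and 0.21 in the labelled knockout. The serotonin autoreceptor gene Htr1a had 0.23 (SE 0.07, edgeR adjusted p = 0.195), and Htr1b -0.36 (SE 0.11, edgeR adjusted p = 0.204). Among the 7 metabotropic glutamate receptors 0 were called, and Grm3 had 0.19 (SE 0.04, edgeR adjusted p = 0.106) with 0.22 in wild type and 0.17 in the labelled knockout. Ion channels that set neuronal firing gave 0 calls of 21. At an unadjusted p under 0.05, 8 were higher and 0 lower (5.77% and 5.43% of all tested genes). An averaged change above 0 was found for 20 (median 0.07, from 0.02 in wild type and 0.19 in the labelled knockout). The sign was the same in both genotypes for 11 of the 21, against 48.2% of all tested genes. The sodium channel gene Scn1a was at 223, 217 and 197 CPM with vehicle and 274, 244 and 229 CPM with clozapine in wild type, and at 185, 198 and 181 CPM with vehicle and 211, 236 and 251 CPM with clozapine in the labelled knockout. Its groups did not overlap within either genotype, and the average of 0.27 (SE 0.05, edgeR adjusted p = 0.0584) did not pass.

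**Figure D5:**
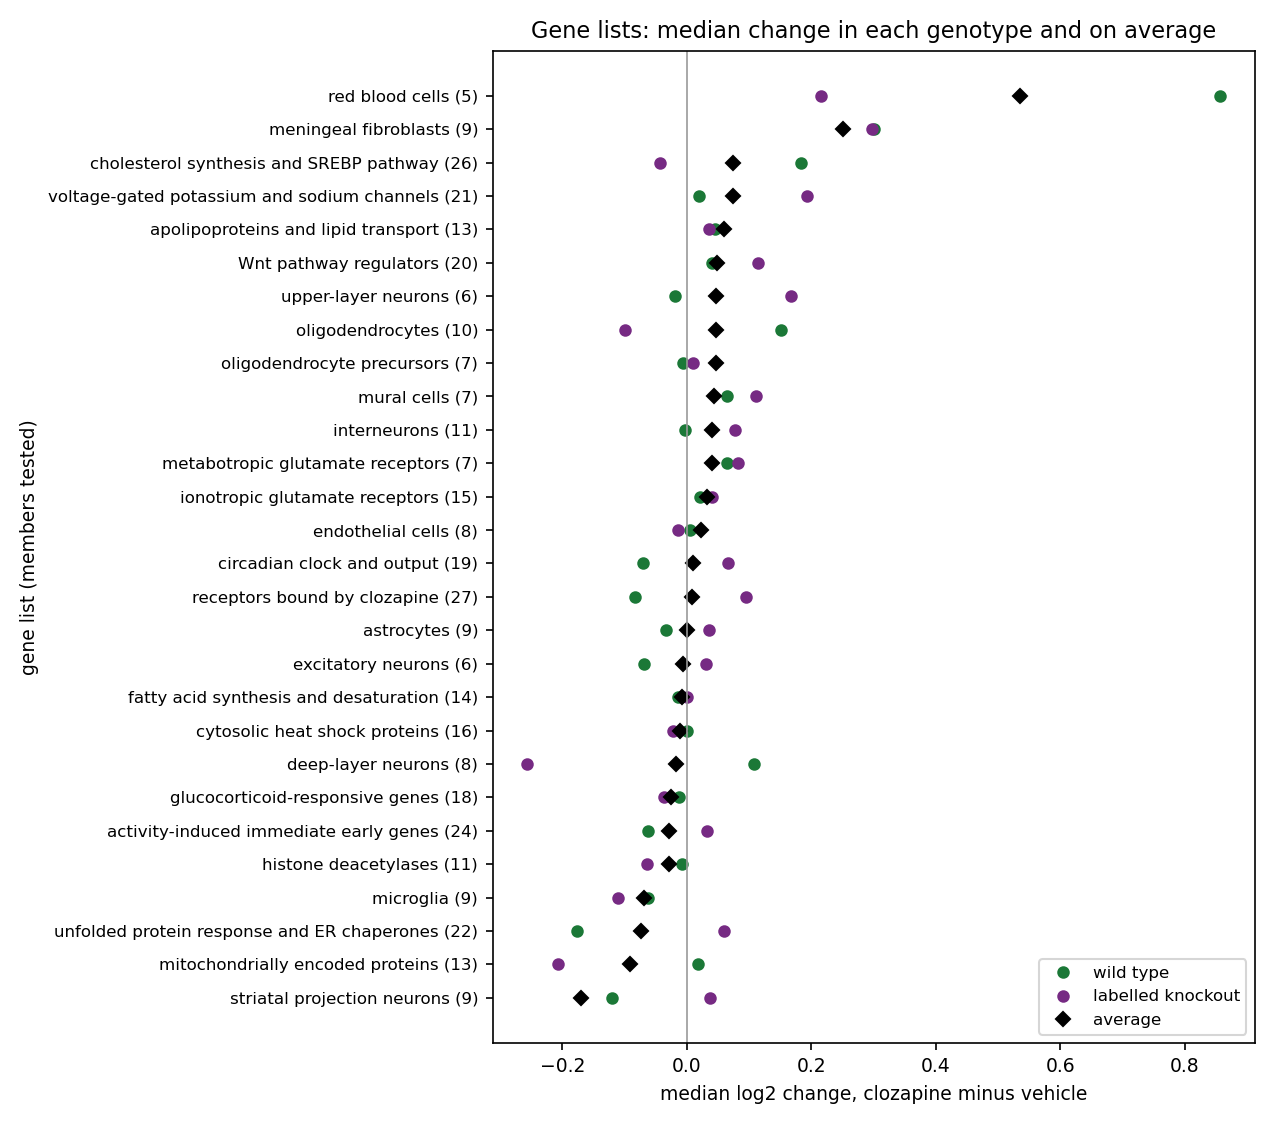
Median log2 change with clozapine of each gene list with at least 5 tested members (number in brackets), in wild type (green), the labelled knockout (purple) and on average (black). For the unfolded protein response and cholesterol synthesis the green and purple points lie on opposite sides of 0. The same holds for other lists, among them deep-layer neurons (0.11 and -0.26) and oligodendrocytes (0.15 and -0.10), so it is not particular to these pathways. Only the blood and meningeal fibroblast lists have averages above 0.2.

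The other lists gave 1 or 0 calls. The 20 Wnt regulators held 1, Amer2, and 5 higher and 1 lower at an unadjusted p under 0.05 (5.77% and 5.43% of all tested genes). The secreted Wnt inhibitor Sfrp1 had 0.29 (SE 0.07, edgeR adjusted p = 0.127) with 0.26 in wild type and 0.32 in the labelled knockout. The 13 lipid transport genes held 1, Apod, and 4 higher and 0 lower at an unadjusted p under 0.05 (5.77% and 5.43% of all tested genes). Among the higher was the cholesterol exporter Abca1 with 0.19 (SE 0.06, edgeR adjusted p = 0.214). Fatty acid synthesis (14 genes), glucocorticoid-responsive genes (18), histone deacetylases (11), ionotropic glutamate receptors (15), cytosolic heat shock proteins (16) and mitochondrially encoded proteins (13) held 0 calls, with medians of -0.01, -0.02, -0.03, 0.03, -0.01 and -0.09. In the glucocorticoid list Mt2, a metallothionein, had -0.33 (SE 0.09, edgeR adjusted p = 0.199) and the cell cycle inhibitor Cdkn1a -0.45 (SE 0.12, edgeR adjusted p = 0.199), each with similar changes in the genotypes (-0.37 and -0.29, -0.48 and -0.42).

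Markers of meninges, blood and choroid plexus gave 0 calls. The summed levels of clozapine and vehicle libraries overlapped in the labelled knockout for each of these lists, and in wild type for meninges but not for blood or choroid plexus. Of 9 meningeal fibroblast markers 8 had an averaged change above 0, 0 were called, and the median was 0.25. Their summed level was 992.1 to 1238.3 CPM in wild-type vehicle and 964.5 to 1520.6 CPM in wild-type clozapine, then 990.4 to 1591.8 and 1289.2 to 1846.3 CPM in the labelled knockout. Col3a1, a collagen gene, had 0.61 (SE 0.16, edgeR adjusted p = 0.159). All 5 red blood cell genes had changes above 0 (0 called, median 0.54), with sums of 138.3 to 180.4 and 211.9 to 436.7 CPM in wild type and 139.5 to 204.7 and 122.4 to 303.2 CPM in the labelled knockout. The 4 choroid plexus genes had a median of -0.85 (0 called, sums of 4.35 to 60.1, 3.09 to 4.20, 6.89 to 9.71 and 4.57 to 8.16 CPM in the order wild-type vehicle and clozapine, knockout vehicle and clozapine). Among neurons, the lists for excitatory (6 markers), upper-layer (6), deep-layer (8), inhibitory (11) and striatal projection cells (9) held 0 calls, with medians of -0.01, 0.05, -0.02, 0.04 and -0.17. Among other cells, those for astrocytes (9), oligodendrocytes (10), their precursors (7), microglia (9) and mural cells (7) held 0 calls, with medians of 0.00, 0.05, 0.05, -0.07 and 0.04. The part of these cells in the called genes was not tested.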

How the data were processed

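RNA of 12 frontal cortex libraries was sequenced. The submitters' processing notes name STAR 2.5.1b, featureCounts and GRCm38. Some values in the deposited table are not whole, so they were taken as estimated counts and rounded. How shared reads were divided, and whether strand was used, is not given in the sources used here. Symbols came from GENCODE release 21 for mouse, which named 46574 of 47069 genes.

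Genes were kept by edgeR's filterByExpr (17286 left, 99.9% of counts). A single fit of the 4 groups in edgeR 4.0.16 (R 4.3.3), with TMM scaling and a robust quasi-likelihood test, gave the average, each genotype's effect and their difference. Adjustment was by Benjamini-Hochberg over tested genes, with a threshold of 0.05, and the fit was tested on simulated data. Precision is limited by 3 libraries per group.

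The comparison, gene lists, motifs and rules were chosen with earlier results of these data known. Genes described are called genes with a mean of at least 1 CPM, the same sign and no overlap within either genotype (up to 15 higher and 15 lower), those with opposite signs, and up to 4 members of each list by smallest p. Other called genes, and genes just outside the threshold, were added after their values were seen. A list member is not reported here. Alternatives were DESeq2 1.42.0, limma-voom (limma 3.58.1), RLE scaling, other filters, a replicate block, 1 surrogate variable (sva 3.50.0), an additive model, unrounded counts, a threshold of 0.10, a length and GC correction (17197 genes) and leaving out each library.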

Additional observations from a re-analysis of the deposited data

Results flagged for a closer look

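The effect of clozapine differed between the genotypes, by the test of the difference itself, in 6 of the 26 genes called on average. The difference is the labelled knockout's log2 change minus that of wild type, with 3 libraries in each group, and the p-values are edgeR's, adjusted over all tested genes. It was 0.59 (95% interval 0.43 to 0.75, edgeR adjusted p = 0.00195) for Hspa5, 0.52 (95% interval 0.35 to 0.69, edgeR adjusted p = 0.0105) for Nr1d1 and 0.52 (95% interval 0.29 to 0.76, edgeR adjusted p = 0.0424) for Fmnl1. It was 0.45 (95% interval 0.26 to 0.65, edgeR adjusted p = 0.0387) for Mical2, 0.37 (95% interval 0.21 to 0.53, edgeR adjusted p = 0.0387) for Slc9a5 and -0.52 (95% interval -0.73 to -0.31, edgeR adjusted p = 0.0315) for Apod. In each of these 6 genes the wild-type change was the larger one. No explanation was weighed for them.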

How the results depend on the processing

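Against 26 genes called in the reported test, DESeq2 called 155, edgeR without a low-count filter 157, with 1 surrogate variable 72, at a threshold of 0.10 65 and with the additive model 0. Called genes with the same sign in both genotypes numbered 17 higher and 8 lower. They were 80 and 61 with DESeq2, 75 and 70 without a filter, 49 and 21 with 1 surrogate variable and 38 and 23 at a threshold of 0.10, and limma-voom called 5 lower. Those with an unadjusted p under 0.05 in each genotype, 17 in the reported test, numbered 61, 76, 41 and 35 in that order. The additive model gives no change per genotype, so these counts could not be had from it. The share of calls that were higher was 65.4% in the reported test, 53.5% with DESeq2, 48.4% without a filter and 44.3% with the block described next.

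With the number in the sample title as a replicate block, 61 genes were called, 26 higher and 33 lower with the same sign and 35 with an unadjusted p under 0.05 in each genotype, 21 of the 26 among them. No clear pairing of the libraries by number was seen. Deviations from the group means correlated at -0.0803 to 0.123 over the 10 pairs of equal number, 1 of them above 0.1. Of 11 libraries, 3 correlated best with a library of their own number. With 3 libraries per group, these values cannot show that the numbers carry no pairing.

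Leaving out 1 library at a time gave 2 to 24 called genes, 1 to 13 higher and 1 to 10 lower with the same sign, and 1 to 18 with an unadjusted p under 0.05 in each genotype. Limma-voom called 19 genes, RLE scaling 21, the length and GC correction 21, unrounded counts 26 and a mean of at least 1 CPM 26. No averaged change of a called gene reversed its sign under any of these settings. Genes at low level, such as Bace2, are limited by depth, and 3 libraries per group limit all others.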

Other observations

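The called genes Slc29a4 and Tnrc18, on opposite strands of chromosome 5, lie 2170 bases apart, end to end, and moved in opposite directions on average (-0.56 and 0.20). The pair was singled out after its values were seen.

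Of the RNA polymerase III transcripts 4 were measured, and all 4 had an averaged log2 change below 0 at an unadjusted p under 0.05 without being called. Of all tested genes 5.43% were lower at that threshold. The sign was the same in both genotypes for 1 of the 4. Their summed level was low, at 10.4 to 13.3 CPM in wild-type vehicle and 10.8 to 15.6 CPM in wild-type clozapine. It was 14.6 to 19.6 CPM in knockout vehicle and 7.74 to 8.78 CPM in knockout clozapine. Rn7s1, which encodes 7SL RNA, had 0.96 in wild type and -1.84 in the labelled knockout, which average to -0.44 (SE 0.18, edgeR adjusted p = 0.348), and its value is uncertain because Rn7s2 is a near-identical copy. Rpph1, the RNA of ribonuclease P, had -0.07 and -1.45, and Rn7sk 0.00 and -0.71. The cause of these values was not tested.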
